A study of Mus musculus with 30 samples.

Results

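The enzymes that turn arachidonic acid into prostaglandins, thromboxane and leukotrienes were followed in mouse macrophages given a β2 adrenergic agonist and then lipopolysaccharide (LPS), a bacterial cell wall component that activates Toll-like receptor 4. The members were 10 genes matched by symbol (Pla2g4a, Ptgs1, Ptgs2, Ptges, Ptges2, Ptges3, Tbxas1, Alox5, Alox5ap and Lta4h) of 24761 symbols in the expression table. Where a symbol had more than 1 transcript row (Pla2g4a, Alox5ap and Lta4h had 2 each), the row with the highest mean was used. All 10 passed the filter on low values.

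Bone marrow cells of wild-type C57Bl/6 mice were grown into macrophages (bone marrow-derived macrophages, BMDM) with M-CSF, the growth factor that drives macrophage differentiation. Cultures were pretreated for 2 h with the vehicle DMSO or with 1 µM metaproterenol hemisulfate (MPH), an agonist of the β2 adrenergic receptor, and were then given LPS for 1 or 2 h at a dose that the labels give as 100 ng/µL. The 0 h samples had the pretreatment and no LPS. One RNA-seq library was made per culture and time, 30 in all, from 3 cultures with MPH (named M2 to M4) and 7 with DMSO (D3 to D6, UKD, r1, r2). LPS for 6 h, which the design text mentions, is not analysed here.

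In this pathway cytosolic phospholipase A2 frees arachidonic acid from membrane lipids. The cyclooxygenases COX-1 and COX-2 convert it to prostaglandin H2, which terminal synthases turn into prostaglandin E2, thromboxane A2 and other prostanoids. In a separate branch 5-lipoxygenase, helped by its activating protein, makes leukotriene A4, which leukotriene A4 hydrolase turns into the neutrophil attractant leukotriene B4. In macrophages COX-2 and the microsomal prostaglandin E synthase are textbook LPS-induced genes, whereas COX-1 is known as the constitutive form.

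Levels are RPKM (reads per kilobase of transcript, scaled to the depth of the library). Read numbers, estimated from the steps between low values, ranged from 5.38 to 92.1 M per library with a median of 41.3 M (M for mega), and 3 libraries lay below 10 M. The 8 macrophage markers summed to between 3761 and 7226 RPKM in all libraries, with Lyz2, Cd68 and Csf1r as the highest. The 10 neutrophil markers were low in comparison, with sums of 5.82 to 92.7 RPKM, carried by S100a8, S100a9 and Ngp. The 1 h library labelled M4 stood apart: over 69 genes that were higher with MPH at 0 h, its mean log2 level lay 0.02 above the DMSO cultures D3 to D6, against 1.35 and 1.23 in M2 and M3 at the same time. Results with MPH at 1 h, and calls at other times that it changes, are given with and without it. The library was singled out by lacking an MPH difference, so leaving it out favours finding one at 1 h. It also enters the shared estimate of the spread, so leaving it out can favour passes at 0 and 2 h. Without it the share of genes passing between MPH and DMSO rose from 0.869% to 1.61% at 0 h and to 2.1% at 2 h. Whether the cultures came from separate mice is not stated in the labels. The p-values of the main fits measure the spread between libraries within a group. Those fits count the 3 libraries of a culture as independent, although these deviated together from their group means (r 0.707 to 0.943). Folds from the fits are differences of log2(RPKM + 0.5), which understate the change of genes near or under 0.5 RPKM.

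Before LPS the 10 enzymes covered a wide range of levels, per length. In the 7 DMSO cultures at 0 h Alox5ap stood at 228 ± 35.8 RPKM (SD, n = 7), above 99.0% of the genes with at least 1 RPKM. Tbxas1 followed at 28.0 ± 3.92 RPKM and Lta4h at 22.1 ± 2.45 RPKM, and their ranges overlapped. Pla2g4a (11.3 ± 3.74 RPKM) and Ptges3 (11.0 ± 3.49 RPKM) could not be separated from each other. Ptges2 (4.56 ± 1.31 RPKM), Ptgs1 (3.60 ± 1.68 RPKM) and Alox5 (3.58 ± 1.42 RPKM) also overlapped. Ptges (0.352 ± 0.156 RPKM) and Ptgs2 (0.265 ± 0.243 RPKM), the inducible enzymes, were the lowest and overlapped with each other. After 2 h of LPS the DMSO mean of Ptgs2 was 82.4 ± 37.8 RPKM, between Alox5ap (193 ± 38.9 RPKM) and Tbxas1 (20.5 ± 2.54 RPKM).

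**Figure D1:**
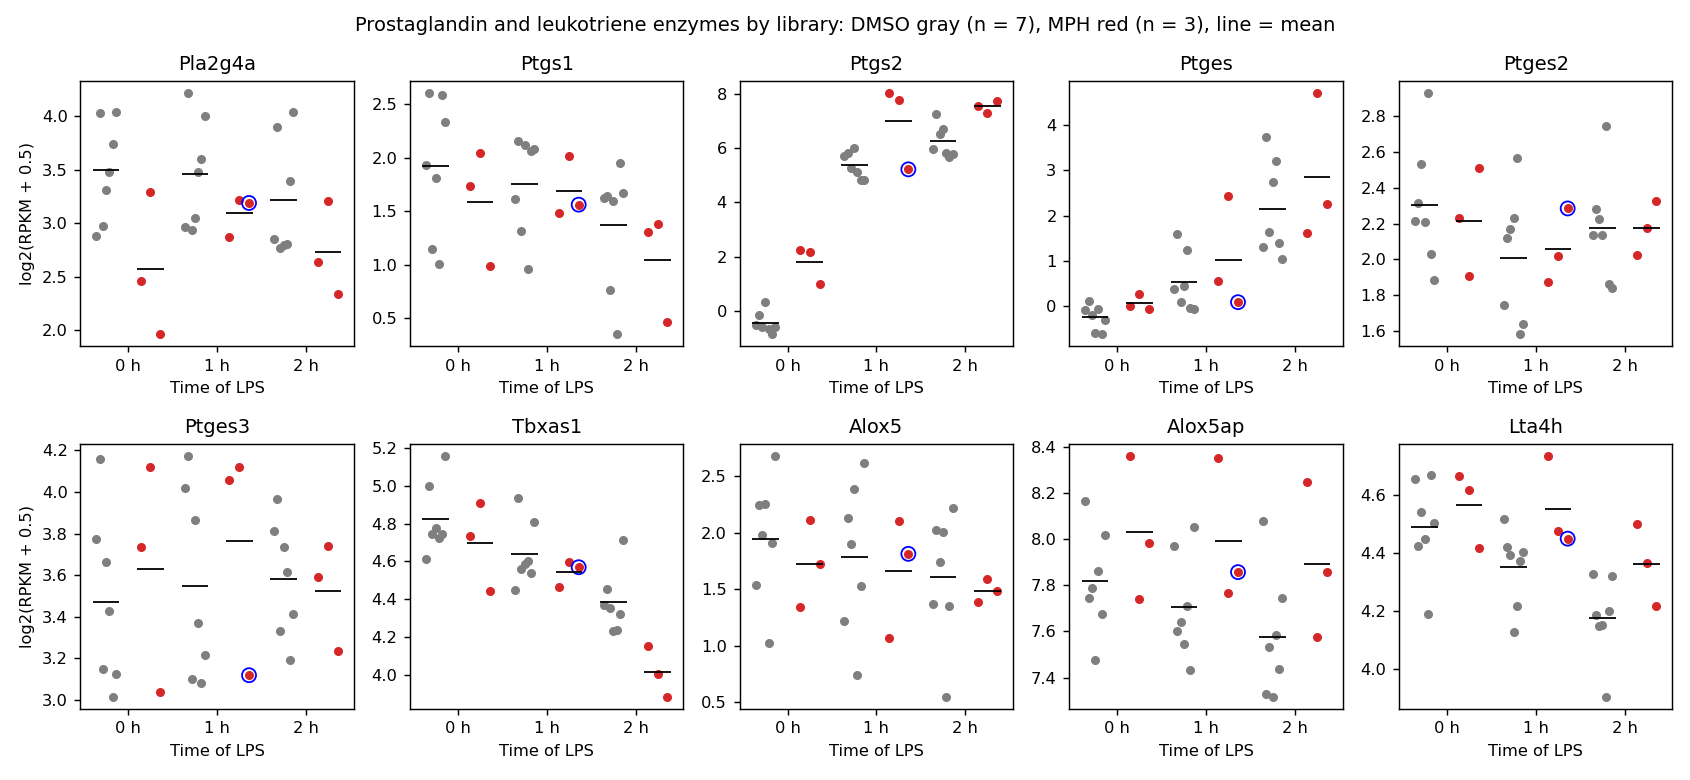
Each point is 1 library, with log2(RPKM + 0.5) on the vertical axis (scaled per gene) and the time of LPS on the horizontal axis, DMSO in gray (n = 7) and MPH in red (n = 3), and a line at the group mean; the blue ring marks the 1 h library labelled M4. Ptgs2 and Ptges climb with time, Tbxas1 and Ptgs1 are lower at 2 h, and the MPH points of Ptgs2 at 0 h lie above all 7 DMSO points.

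The promoter windows of both cyclooxygenases and of Ptges are shown because these 3 genes carry the main contrasts below. Each holds the 250 bases before the annotated start, on the gene's strand, from RefSeq on GRCm38.p6 (the expression table was made on mm9, and no coordinate was carried between the builds); 9 of the 10 members matched an entry. The windows lie at chr1:150099781-150100030 on the plus strand for Ptgs2, chr2:30903298-30903547 on the minus strand for Ptges and chr2:36230176-36230425 on the plus strand for Ptgs1. Capitals mark TTGCGCAA, a palindromic core bound by C/EBP factors, which was added to the search after the Ptgs2 window had been read.
Ptgs2: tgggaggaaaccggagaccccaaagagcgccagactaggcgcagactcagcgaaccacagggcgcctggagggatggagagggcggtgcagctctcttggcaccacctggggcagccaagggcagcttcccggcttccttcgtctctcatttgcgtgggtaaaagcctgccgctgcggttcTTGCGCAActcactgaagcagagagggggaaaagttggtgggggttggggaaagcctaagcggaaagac
Ptges: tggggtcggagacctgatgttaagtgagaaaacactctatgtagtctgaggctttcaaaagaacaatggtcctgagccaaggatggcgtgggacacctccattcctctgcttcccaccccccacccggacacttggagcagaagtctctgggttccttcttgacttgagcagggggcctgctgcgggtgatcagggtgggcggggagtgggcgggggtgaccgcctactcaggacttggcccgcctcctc
Ptgs1: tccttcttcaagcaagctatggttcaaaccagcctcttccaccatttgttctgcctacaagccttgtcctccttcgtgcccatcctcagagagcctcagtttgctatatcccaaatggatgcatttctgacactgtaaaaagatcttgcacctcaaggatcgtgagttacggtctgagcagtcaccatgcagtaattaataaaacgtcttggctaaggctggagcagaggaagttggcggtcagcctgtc
The Ptgs2 window was 61.6% G and C with 13 CpG dinucleotides, the Ptges window 59.6% with 8 and the Ptgs1 window 48.0% with 5. TTGCGCAA stood 69 to 62 bases before the Ptgs2 start, and 0.165% of 32817 windows of this length held it on either strand. The motif was picked from this same window, so the match was fixed in advance and the share does not measure how unusual it is. None of the 3 windows held TGACGTCA (in 1.55% of windows), its core TGACG (17.7%), an NF-kB type motif of 10 letters (4.11%), the E-box CACGTG (6.02%) or the TATA motif TATAAA (12.4%), searched on both strands; TGACG lies within TGACGTCA. These are matches of letters in 1 window per gene and say nothing of binding. Each window ends at the annotated start, and bases past it or farther upstream were not searched. A motif absent from a window can therefore still be present in the promoter of that gene.

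Pla2g4a encodes the cytosolic phospholipase A2 that supplies arachidonic acid. In the DMSO cultures it ranged from 6.88 to 15.9 RPKM at 0 h (median 10.6), from 7.15 to 18.1 RPKM at 1 h (median 10.6) and from 6.34 to 15.9 RPKM at 2 h (median 6.72). It was lower at 2 h than at 0 h in 7 of 7 DMSO cultures, by a median of 0.860-fold. The log2 difference of -0.27 ± 0.23 (SE) did not pass in limma across all genes (adjusted p = 0.319). With the culture as a block, which removes differences between cultures, the same difference passed (SE 0.08, adjusted p = 0.00348). After median-of-ratios scaling, which sets libraries to a common typical gene, it was -0.06 without the block (adjusted p = 0.865). With MPH at 0 h Pla2g4a stood at 4.99, 9.32 and 3.41 RPKM in M2, M3 and M4, against 6.88, 15.9, 7.37 and 9.45 RPKM in D3 to D6. M2 and M4 were below all 4 controls and M3 was within their range. The log2 difference was -0.73 ± 0.38 (SE) and did not pass (limma adjusted p = 0.863).

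Ptgs2, which encodes COX-2, was the member with the largest LPS response. In the DMSO cultures it ranged from 0.0501 RPKM (r1) to 0.759 RPKM (D6) at 0 h with a median of 0.166 RPKM, or about 11.0 to 62.9 reads per library. At 1 h the lowest, median and highest values were 27.7, 38.1 and 64.1 RPKM, and at 2 h they were 50.6, 62.0 and 154 RPKM. The 3 times did not overlap between 0 h and either LPS time, while 1 h and 2 h did. Within cultures the level rose between 84.5-fold (D6) and 552-fold (r1) by 1 h. On the log2 scale the DMSO cultures rose by 5.81 ± 0.18 (SE) at 1 h (limma adjusted p = 4.6e-15) and by 6.70 ± 0.18 at 2 h (adjusted p = 4.11e-16). In bulk RNA a change in the cells making a transcript cannot be told apart from a change in transcript per cell.

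Ptgs1, the COX-1 gene, moved the other way. Its DMSO values were 1.50 to 5.57 RPKM at 0 h (median 3.32), 1.44 to 3.95 RPKM at 1 h (median 3.68) and 0.775 to 3.36 RPKM at 2 h (median 2.57). The groups overlapped, but the level was lower at 2 h than at 0 h in 7 of 7 DMSO cultures (0.470- to 0.839-fold). The log2 difference at 2 h was -0.55 ± 0.19 (SE, limma adjusted p = 0.0206). The call was lost without the culture UKD (adjusted p = 0.0517), r1 (0.0574) or r2 (0.0616), and after median-of-ratios scaling (log2 difference -0.36, adjusted p = 0.139). The ratio of Ptgs2 to Ptgs1 per library, a ratio of levels per length, had a median of 0.0717 in the DMSO cultures at 0 h, 16.8 at 1 h and 42.0 at 2 h. In the MPH cultures the medians were 1.10, 62.8 and 96.9. At 0 h the MPH ratios (1.00 to 1.51) lay above all DMSO ratios (0.00909 to 0.253).

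**Figure D2:**
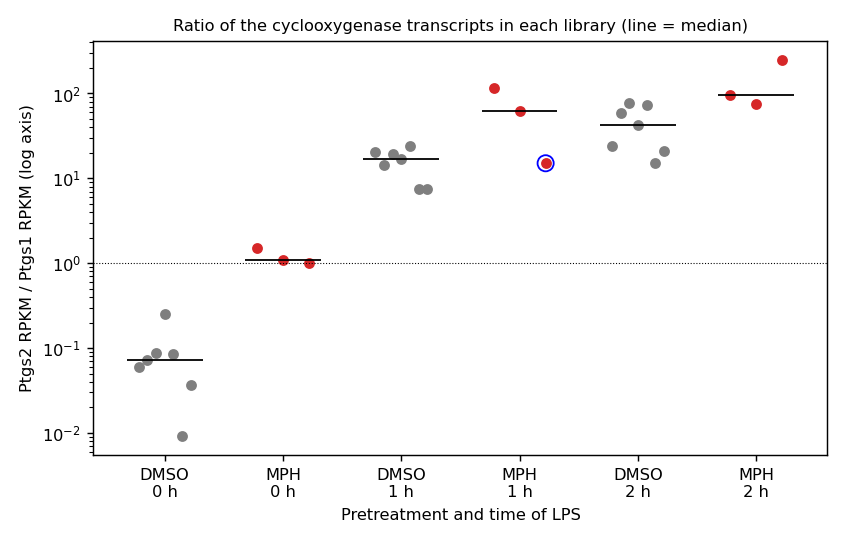
The vertical log axis gives the Ptgs2 RPKM divided by the Ptgs1 RPKM of each library, by pretreatment and time (DMSO gray, n = 7; MPH red, n = 3), with a line at the median, a dotted line at 1 and a blue ring on the 1 h library labelled M4. The DMSO ratios reach at most 0.253 at 0 h, where the 3 MPH ratios are between 1.00 and 1.51.

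Ptgs2 also differed in level between MPH and DMSO cultures before any LPS, by an amount that passed in some fits and not in others. At 0 h M2, M3 and M4 stood at 4.26, 3.98 and 1.49 RPKM, against 0.201, 0.400, 0.152 and 0.759 RPKM in D3 to D6, the cultures named in the same way and used as their controls. The 2 groups did not overlap, nor did the MPH values overlap with all 7 DMSO cultures. The ratio of mean RPKM was 8.58, and the log2 difference was 2.04 ± 0.51 (SE), which did not pass (limma adjusted p = 0.0717). The 1 h library labelled M4 enters this 0 h test only through the shared estimate of the spread. Without it the same difference had an SE of 0.32 and an adjusted p of 0.00172. Against all 7 DMSO cultures it was 2.24 (adjusted p = 0.00257). Over the alternatives that were planned the adjusted p ran from 0.000659 (without the culture M4) to 0.403. The latter came with the culture as a random block (SE 0.66), which allows for libraries of 1 culture being alike.

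At 1 h of LPS the MPH values of Ptgs2 were 263, 222 and 36.9 RPKM in M2, M3 and M4, against 51.8, 57.0, 38.1 and 64.1 RPKM in D3 to D6. M2 and M3 were far above all 4 controls and M4 was just below the lowest of them. With all 3 the log2 difference was 1.31 ± 0.51 (SE, limma adjusted p = 1.00). Without the 1 h library labelled M4 it was 2.21 ± 0.37 and passed (adjusted p = 0.00428). That fit has 2 MPH libraries at 1 h, and the one left out was singled out by lacking an MPH difference, which favours a pass. At 2 h the MPH values were 190, 158 and 217 RPKM against 62.0, 154, 92.4 and 106 RPKM, and the groups touched without overlapping. The ratio of means there was 1.82, and the log2 difference of 0.92 ± 0.51 did not pass (adjusted p = 0.671).

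The course between 1 and 2 h differed in direction between cultures; this comparison was added after the values were seen. Ptgs2 was higher at 2 h than at 1 h in 7 of 7 DMSO cultures, by 1.20- to 2.70-fold (log2 difference 0.89 ± 0.18, SE, limma adjusted p = 0.00118). It was lower at 2 h in M2 (0.723-fold) and M3 (0.709-fold) and higher in M4 (5.87-fold). The difference between the MPH and DMSO changes was -0.39 ± 0.72 (adjusted p = 1.00), and without the 1 h library labelled M4 it was -1.29 ± 0.49 (adjusted p = 1.00), so neither passed.

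**Figure D3:**
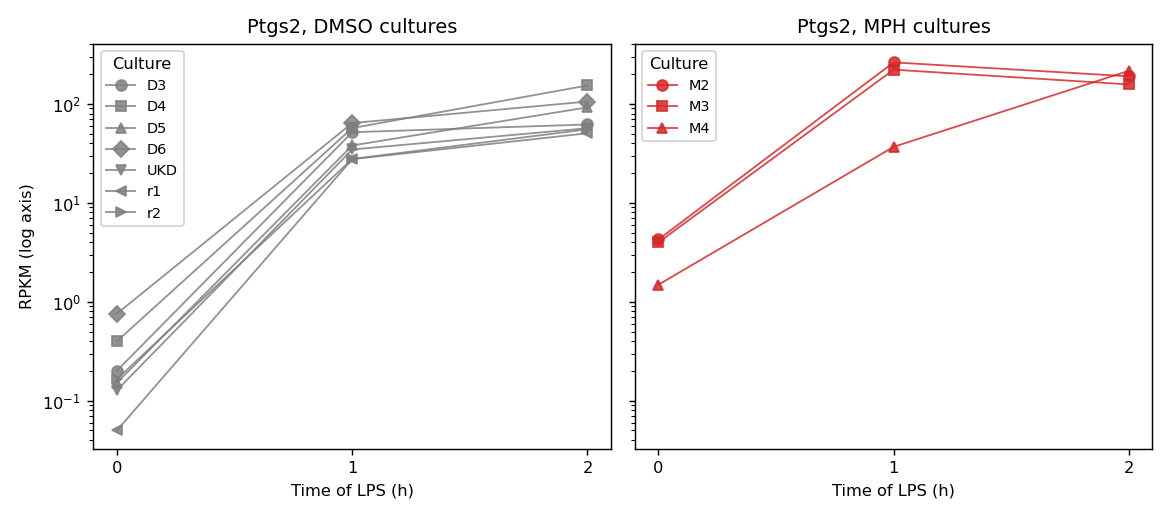
Ptgs2 RPKM on a log axis against the time of LPS in hours, with 1 line per culture, DMSO on the left (n = 7) and MPH on the right (n = 3). The MPH cultures begin between 1.49 and 4.26 RPKM and the DMSO cultures between 0.0501 and 0.759 RPKM; M2 and M3 fall from 1 to 2 h while M4 and the 7 DMSO cultures rise.

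In the MPH cultures LPS raised Ptgs2 by 5.22 ± 0.54 (log2, SE) at 1 h (limma adjusted p = 5.24e-06; 6.12 ± 0.39 without the library labelled M4, adjusted p = 3.72e-08) and by 5.74 ± 0.54 at 2 h (adjusted p = 7.79e-07). The MPH response minus the DMSO response was -0.73 ± 0.72 at 1 h and -1.12 ± 0.72 at 2 h, each with an adjusted p of 1.00, so a difference between the responses was not detected. Without the 1 h library labelled M4 the 1 h value was 0.17 ± 0.49 (adjusted p = 0.999). At 0 h the added 0.5 RPKM exceeded most DMSO values of Ptgs2 and no MPH value. The log2 differences therefore understate the DMSO response more. Per culture, RPKM rose 24.8- to 61.7-fold with MPH by 1 h, below the 84.5- to 552-fold of the 7 DMSO cultures. By 2 h the folds were 39.6 to 146 with MPH and 139 to 1009 with DMSO, and overlapped. The share of all genes with such a gap at 1 h was not counted.

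Ptges encodes the inducible microsomal prostaglandin E synthase, which works downstream of COX-2. Its DMSO values ranged from 0.150 to 0.579 RPKM at 0 h (median 0.372), from 0.455 to 2.51 RPKM at 1 h (median 0.800) and from 1.54 to 12.8 RPKM at 2 h (median 2.62). The 0 h and 2 h groups did not overlap, and the level rose in 7 of 7 DMSO cultures, by 4.53- to 38.2-fold at 2 h. The log2 difference was 2.40 ± 0.31 (SE, limma adjusted p = 3.62e-06) at 2 h. At 1 h it was 0.78 ± 0.31 (adjusted p = 0.0861), which passed with the culture as a block (adjusted p = 0.0106) or without D4 (adjusted p = 0.0487). From 1 to 2 h Ptges rose by 1.63 ± 0.31 (adjusted p = 0.000901).

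With MPH, Ptges stood at 0.505, 0.701 and 0.460 RPKM at 0 h in M2, M3 and M4, at 0.978, 4.90 and 0.560 RPKM at 1 h and at 2.55, 25.7 and 4.27 RPKM at 2 h. The controls D3 to D6 were at 0.436, 0.579, 0.372 and 0.162 RPKM at 0 h and at 1.97, 12.8, 2.62 and 6.19 RPKM at 2 h. M3 and D4 were the highest of their groups at 0, 1 and 2 h, and the groups overlapped at each time. The log2 differences between MPH and DMSO were 0.27 ± 0.68, 0.40 ± 0.68 and 0.50 ± 0.68 (SE) and none passed (limma adjusted p = 1.00 at each time); at 1 h without the library labelled M4 the value was 0.87 ± 0.75 (adjusted p = 0.784). LPS for 2 h raised Ptges in the MPH cultures by 2.79 ± 0.72 (adjusted p = 0.0110), a call lost without M3 (1.96, adjusted p = 0.0693) or M4 (adjusted p = 0.0501).

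The other prostaglandin E synthases gave 1 call with LPS between them. Ptges3, a cytosolic synthase that is also an HSP90 co-chaperone, had DMSO means of 11.0 ± 3.49, 11.7 ± 3.98 and 11.7 ± 2.33 RPKM (SD, n = 7) at 0, 1 and 2 h. Its LPS differences of 0.07 ± 0.16 and 0.11 ± 0.16 (log2, SE) did not pass (limma adjusted p = 0.779 and 0.583). Ptges2, a membrane-associated synthase, was at 4.56 ± 1.31, 3.63 ± 1.05 and 4.11 ± 1.05 RPKM (SD, n = 7) at the same times. At 1 h it was lower in 6 of 7 DMSO cultures, by -0.30 ± 0.08 (adjusted p = 0.0107). That call was lost after median-of-ratios scaling (-0.17, adjusted p = 0.221) and without the culture r1 (adjusted p = 0.0625). MPH differences of Ptges2 were -0.10, -0.01 and -0.02 at 0, 1 and 2 h and those of Ptges3 were -0.05, -0.02 and -0.19, and none passed. Without the library labelled M4 the 1 h values were -0.12 for Ptges2 and 0.30 for Ptges3, so the sign of Ptges3 turned, and neither passed.

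Tbxas1, the thromboxane A synthase gene, fell with LPS. In the DMSO cultures the lowest, median and highest values were 24.0, 26.3 and 35.2 RPKM at 0 h, 21.3, 23.5 and 30.1 RPKM at 1 h and 18.3, 19.9 and 25.7 RPKM at 2 h. Each of the 7 DMSO cultures was lower at 1 h than at 0 h and lower again at 2 h. The log2 difference at 2 h was -0.44 ± 0.09 (SE, limma adjusted p = 0.000596), and it was -0.22 after median-of-ratios scaling (adjusted p = 0.0489). At 1 h it was -0.18 ± 0.09 (adjusted p = 0.173), which passed with the culture as a block (adjusted p = 0.00469).

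In the MPH cultures Tbxas1 went from 26.1, 29.5 and 21.3 RPKM at 0 h in M2, M3 and M4 to 17.3, 15.6 and 14.2 RPKM at 2 h. This fall of 0.68 on the log2 scale (SE 0.15, limma adjusted p = 0.00309) passed after median-of-ratios scaling too (-0.47, adjusted p = 0.0205) and was lost without M3 (-0.57, adjusted p = 0.0715). At 2 h all 3 MPH values were below D3 to D6 (20.1, 21.4, 19.9 and 18.3 RPKM). The log2 difference between MPH and DMSO there was -0.34 ± 0.14, which did not pass (adjusted p = 0.394). At 0 h it was -0.09 ± 0.14 and the groups overlapped.

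In the leukotriene branch all 3 genes were lower at 2 h than at 0 h in 7 of 7 DMSO cultures. The same held for Pla2g4a, Ptgs1, Ptges2 and Tbxas1. The median log2 difference over all genes at 2 h was -0.25, and the share of all genes lower in 7 of 7 cultures was not counted. Lta4h, the leukotriene A4 hydrolase gene, had a median of 22.2 RPKM (17.8 to 24.9) at 0 h, 20.5 RPKM (17.0 to 22.4) at 1 h and 17.7 RPKM (14.5 to 19.6) at 2 h. Its log2 difference at 2 h was -0.31 ± 0.07 (SE, limma adjusted p = 0.000723), and after median-of-ratios scaling it was -0.09 (adjusted p = 0.316). Alox5, the 5-lipoxygenase gene, was at 3.58 ± 1.42 RPKM at 0 h and 2.73 ± 1.10 RPKM at 2 h (SD, n = 7), and the log2 difference of -0.34 ± 0.21 did not pass (adjusted p = 0.171). Alox5ap, the gene of the 5-lipoxygenase activating protein, went from 228 ± 35.8 to 193 ± 38.9 RPKM (-0.24 ± 0.13, adjusted p = 0.128). With the culture as a block the Alox5 and Alox5ap differences passed (adjusted p = 0.000308 and 0.000220), and after median-of-ratios scaling without the block they were -0.15 and -0.01 (adjusted p = 0.624 and 0.948).

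No leukotriene gene passed between MPH and DMSO in the fit of all 21 libraries by group. Alox5ap stood at 328, 214 and 252 RPKM with MPH at 0 h in M2, M3 and M4 and at 178 to 286 RPKM in D3 to D6, so the groups overlapped. Its log2 differences were 0.24 ± 0.22, 0.30 ± 0.22 and 0.33 ± 0.22 (SE) at 0, 1 and 2 h. Those of Lta4h were 0.05 ± 0.12, 0.19 ± 0.12 and 0.16 ± 0.12, and those of Alox5 were -0.28, -0.25 and -0.30, each ± 0.28. None passed in limma (adjusted p of 0.835 or more). Without the library labelled M4 the 1 h values were 0.37 for Alox5ap, 0.24 for Lta4h and -0.32 for Alox5 (adjusted p of 0.649 or more).

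Counted over the 10 members, LPS gave 1 higher (Ptgs2) and 1 lower (Ptges2) in the DMSO cultures at 1 h, where 20.3% of all genes tested passed. At 2 h it gave 2 higher (Ptgs2, Ptges) and 3 lower (Ptgs1, Tbxas1, Lta4h), where 54.1% passed, so 5 of 10 is near the background. The median log2 difference at 2 h was -0.26 over the members and -0.25 over all genes. After median-of-ratios scaling, which moved the median of all genes to -0.04, 3 members passed (Ptgs2, Ptges, Tbxas1). Of all 10212 genes, 1691 then passed as higher and 2179 as lower. The share of called genes that were higher went from 19.4% to 43.7%. At 1 h the median of all genes went from -0.15 to -0.02 with that scaling and the share higher from 25.8% to 54.6%. There 665 of the 10212 genes passed as higher and 553 as lower. With the culture as a block 5 members passed at 1 h (Ptgs2, Ptges, Ptges2, Tbxas1 and Lta4h; background 53.5%) and 8 at 2 h (all but Ptges2 and Ptges3; background 76.9%). Between 2 h and 1 h Ptgs2 and Ptges passed, 2 of 10 where 22% of all genes did.

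In the MPH cultures 1 member (Ptgs2) passed at 1 h, where 3.08% of all genes did. At 2 h 3 passed (Ptgs2, Ptges, Tbxas1; background 20.7%), and 5 passed with the culture as a block, which added Ptgs1 (adjusted p = 0.0217) and Lta4h (adjusted p = 0.0294; background 54.5%). Median-of-ratios scaling moved the share of called genes that were higher from 61.6% to 73.0% at 1 h and from 28.8% to 55.0% at 2 h. It left the counts of members at 1 and 3. Of all 10239 genes it called 216 higher and 80 lower at 1 h, and 791 and 646 at 2 h.

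Between MPH and DMSO no member passed in limma at 0 h (background 0.869%), at 1 h (background 0%) or at 2 h (background 0.869%). An unadjusted p under 0.05 was held by 1 member at each time, Ptgs2 at 0 and 1 h and Tbxas1 at 2 h. Of all 10239 genes, 685, 327 and 930 had such a p at 0, 1 and 2 h. Without the 1 h library labelled M4, Ptgs2 was the 1 member that passed at 0 h (background 1.61%) and at 1 h (background 1.34%). No member passed at 2 h (background 2.1%). There 2 members had an unadjusted p under 0.05, as did 1023 of 10231 genes. By value, 1 member did not overlap between MPH and D3 to D6 at 0 h (Ptgs2; 7.54% of all genes), none at 1 h (1.48%) and 2 at 2 h (Ptgs2 higher and Tbxas1 lower; 9.5%). At 1 h without the library labelled M4, Ptgs2 did not overlap (14.5% of all genes).

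No member's LPS response differed between MPH and DMSO in limma at 1 h (background 0%) or 2 h (background 0.107%, or 1.43% with the culture as a block). With all 21 libraries and no block, no member had an unadjusted p under 0.05 there. With the block Pla2g4a did at 1 h (0.53 ± 0.23, unadjusted p = 0.0341, adjusted p = 0.898), as did 561 of 10239 genes. Without the 1 h library labelled M4 Ptgs2 did at 2 h (-1.12 ± 0.46, unadjusted p = 0.0256, adjusted p = 1.00), as did 365 of 10231 genes. These comparisons share libraries: the D3 to D6 libraries serve both as controls of MPH and in the LPS response of the DMSO cultures.

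**Figure D4:**
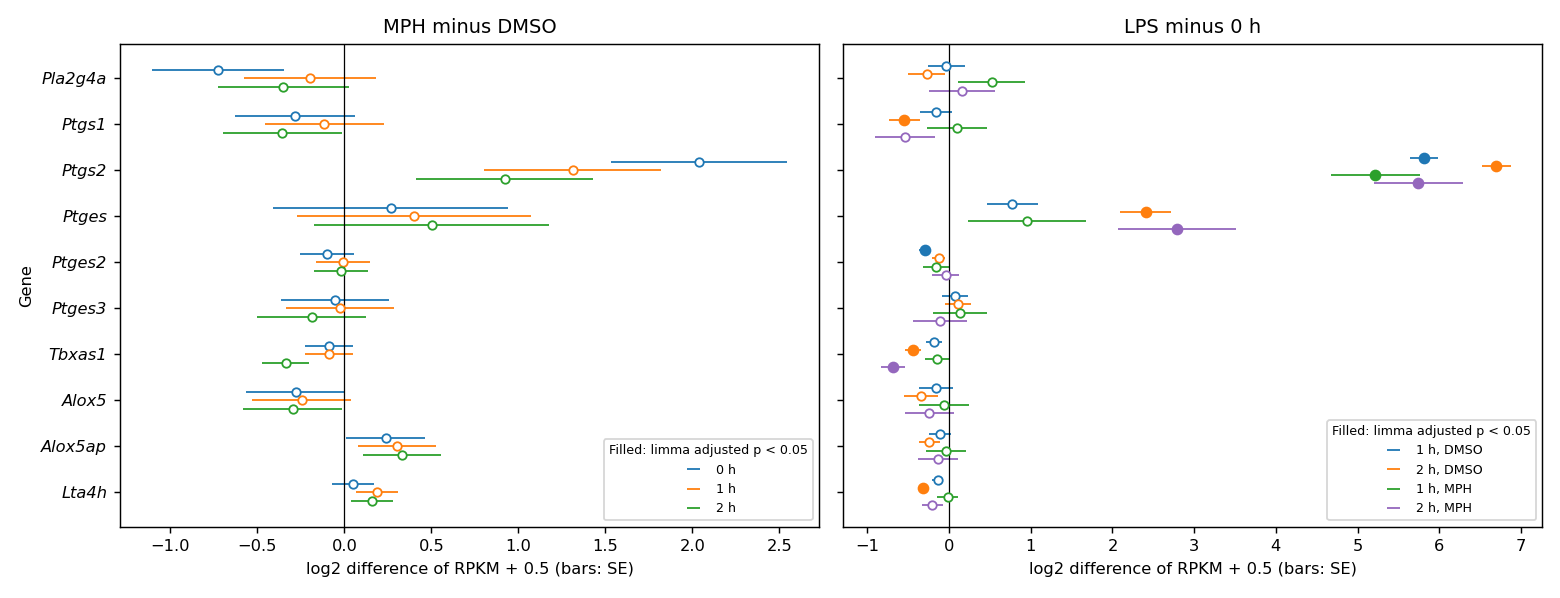
Log2 differences of RPKM + 0.5 (horizontal axis, bars show SE) for the 10 genes, with MPH minus DMSO at 3 times on the left (3 against 4 cultures) and LPS minus 0 h in the DMSO and MPH cultures on the right (7 and 3 cultures); the 2 panels have different scales, and filled points passed an adjusted p of 0.05 in limma. No point on the left is filled, and Ptgs2 (0.92 to 2.04) is farthest right at each time; on the right Ptgs2 lies between 5.22 and 6.70.

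Neutrophils also express several of these genes, and their markers varied between cultures. The 10 neutrophil markers summed to 41.1 to 54.9 RPKM with MPH and 5.82 to 49.1 RPKM in D3 to D6 at 0 h, and to 62.1 to 90.5 against 17.7 to 92.7 RPKM at 2 h. The granulocyte marker Ly6g was at most 0.356 RPKM in any library. In the 7 DMSO cultures the sum had medians of 28.0, 39.1 and 42.0 RPKM at 0, 1 and 2 h. The 7 platelet markers, relevant to Tbxas1 and Ptgs1, summed to 16.1 to 76.0 RPKM, nearly all of it Pf4. The part of these cells in the results was not tested.

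Of the other genes of the pathway, 67 were listed by role (phospholipases and arachidonate handling, terminal synthases, breakdown, transport and receptors), all were in the table and 42 passed the filter on low values. In the DMSO cultures 1 rose and 1 fell at 1 h, where 20.3% of all genes passed. Ptger4, the prostaglandin E2 receptor EP4, rose by 1.27 ± 0.24 (log2, SE, limma adjusted p = 0.000923) and Akr1b3, an aldose reductase with prostaglandin F synthase activity, fell by 0.24. At 2 h 6 rose and 9 fell (background 54.1%), with a list median of -0.20 beside -0.25 over all genes. The EP2 receptor gene Ptger2 (0.70), Ptger4 (0.96), the acyl-CoA synthetase gene Acsl1 (1.23) and the formyl peptide receptor gene Fpr2 (1.86) rose. The diacylglycerol lipase genes Dagla (-1.04) and Daglb (-0.65), the lysosomal phospholipase gene Pla2g15 (-1.31) and the nuclear receptor gene Pparg (-0.99) fell. After median-of-ratios scaling the counts were 9 higher and 7 lower at 2 h and 1 and 0 at 1 h. Of all 10212 genes, 1691 then passed as higher and 2179 as lower at 2 h, and 665 and 553 at 1 h. With the culture as a block the listed genes gave 7 and 24 at 2 h (background 76.9%) and 4 and 12 at 1 h (53.5%).

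In the MPH cultures 1 listed gene rose at 1 h (background 3.08%), Ptger4 by 2.41 ± 0.33 (limma adjusted p = 0.000136, and 2.20 without the library labelled M4). Its mean went from 0.405 to 4.40 RPKM with MPH and from 2.51 to 5.40 RPKM in D3 to D6. At 2 h 5 rose and 7 fell, where 20.7% of all genes passed. After median-of-ratios scaling 6 rose and 4 fell, beside 791 and 646 of all 10239 genes. With the culture as a block 7 rose and 16 fell (background 54.5%). Ptger4 (1.96), Ptger2 (1.94), Acsl1 (1.63) and the lysophospholipid acyltransferase gene Lpcat2 (0.77) rose. Dagla (-1.52), Pla2g15 (-1.42), Lpcat1 (-1.01) and Daglb (-0.93) fell. The difference between the MPH and DMSO responses passed for no listed gene without a block. With the culture as a block it passed for Ptger4 at 1 h (1.48 ± 0.21, limma adjusted p = 0.00652). There 5 of 10239 genes passed as higher and 15 as lower. At 2 h it passed for Ptger4 (1.29, adjusted p = 0.00541), Acsl4 (0.94, adjusted p = 0.0210) and Lpcat1 (-0.86, adjusted p = 0.0423), with a background of 1.43%.

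Between MPH and DMSO 1 of the 42 genes passed at 0 h, none at 1 h and 1 at 2 h, where 0.869%, 0% and 0.869% of all genes did. At 0 h Ptger4 was at 0.405 ± 0.0209 RPKM (SD, n = 3) with MPH and 2.51 ± 0.862 RPKM (SD, n = 4) in D3 to D6, a log2 difference of -1.69 ± 0.31 (SE, limma adjusted p = 0.00866). At 2 h Lpcat1 was at 3.27 ± 0.835 against 6.71 ± 1.70 RPKM (SD, n = 3 and 4), a log2 difference of -0.93 (adjusted p = 0.0223). The Lpcat1 call was lost with the culture as a random block, without D4 and without M3. In each of these fits no gene passed as lower at 2 h. Ptger2 stood at 6.08 ± 2.24 against 2.11 ± 0.574 RPKM (SD) at 2 h. Its difference of 1.30 passed without the 1 h library labelled M4 (adjusted p = 0.00836). Without that library Pparg also passed at 0 h (-1.14, adjusted p = 0.0116), 1 h (-1.14, adjusted p = 0.0361) and 2 h (-1.25, adjusted p = 0.00660). The counts were then 0 higher and 2 lower at 0 h, 0 and 1 at 1 h, and 1 and 2 at 2 h (backgrounds 1.61%, 1.34% and 2.1%). Leaving out a library chosen as outlying favours these passes, at 0 and 2 h through the shared estimate of the spread. The culture as a random block was not fitted without that library.

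Over the 30 libraries the members followed different patterns, given as Pearson's r of log2(RPKM + 0.5). These libraries share cultures, treatments and times, so r is a description of this set. Ptgs2 and Ptges had r = 0.70, and Tbxas1 had r = -0.65 with Ptgs2 and -0.66 with Ptges. Ptgs1 and Pla2g4a had r = 0.62, Ptgs1 and Tbxas1 0.64, and Alox5ap and Lta4h 0.61. Among 9583 genes with a mean of at least 1 RPKM, those most like Ptgs2 were Il1b (0.98), Clec4e (0.97), Il1a (0.96), Tlr2 (0.96) and Srgn (0.96). Among those most like Ptges were Tarm1 (0.93), Lpar1 (0.90), Fpr1 (0.90) and Prdx5 (0.89). Ptgs1 was most like Scamp1 (0.92), Elovl5 (0.91), Atp8a1 (0.91), Sdcbp (0.91) and Celf2 (0.90), and Alox5 was most like Pld4 (0.91), Lyz2 (0.84), Timp2 (0.83), Lgals9 (0.82) and Naaa (0.82).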

How the data were processed

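RNA was sequenced as TruSeq libraries of 50-base reads, per the labels' protocols and the series' design text. Per the submitters' processing notes, FastQC, cutadapt, HISAT2 and SAMtools were used with the mouse build mm9. Which counter and annotation were used is not given in the sources used here. Deposited values are RPKM per transcript (44401 transcripts), with no value equal to 0. Read numbers per library were estimated from the steps between low RPKM values.

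The 10 members and the gene lists were chosen with earlier results of these data known. Named genes were the members, up to 4 listed pathway genes per direction and comparison with the smallest p, and the 5 genes most correlated with each of Ptgs2, Ptges, Ptgs1 and Alox5; 1 of these is not reported here. For each symbol the row with the highest mean was kept. A gene was tested if 3 or more libraries had 1 RPKM or more, on log2(RPKM + 0.5) with limma 3.58.1 (R 4.3.3), with a trend in the variance and two-sided, Benjamini-Hochberg adjusted p-values over all genes (threshold 0.05). One fit held the 21 libraries of the cultures named D or M with a number (10239 genes) for MPH effects, LPS responses under MPH and their differences. Another held the 21 DMSO libraries with the way cultures were named as a covariate (10212 genes). Libraries of 1 culture deviated from their group means together over 3852 genes (r 0.707 to 0.943). The culture name, shared over times in the labels, was therefore used as a block in alternative fits, and the main fits had no block. Scripts were tested on simulated data. Alternatives were another pseudocount, filter, scaling, row choice, control set, block, and leaving out each culture or library.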

Additional observations from a re-analysis of the deposited data

Results flagged for a closer look

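The value of Lta4h in the culture UKD at 2 h of LPS, 14.5 RPKM, lay below those of the other 6 DMSO cultures at that time. On the log2(RPKM + 0.5) scale its gap to the nearest of them was 0.581 of the whole range of the 7 values, above Dixon's critical value for 7 samples; on the RPKM scale it was 0.545, below that value. On the RPKM scale 2 other values at 2 h in DMSO passed it instead, Ptges2 in UKD (6.22 RPKM) and Tbxas1 in r2 (25.7 RPKM), both the highest of their group, so which values pass depends on the scale. The rule was applied to 30 groups of values on each scale, and chance alone passes about 1 in 20.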

How the results depend on the processing

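No member reversed a called direction under any alternative. The count of members passing between MPH and DMSO at 0 h, 0 in the main analysis, was 1 (Ptgs2) with a pseudocount of 0.1, against all 7 DMSO cultures with or without the covariate, and within the 0 h libraries; leaving out libraries gave 0 to 1, with 1 when the culture M4 or its 1 h library was left out. At 1 h leaving out libraries gave 0 to 1 in the same way. For LPS at 1 h in DMSO the count of 2 became 1 after median-of-ratios scaling, without the covariate and with D3 to D6 only, 5 with the culture as a replicate block, and 1 to 3 without single cultures (1 without r1). At 2 h the count of 5 became 3 after median-of-ratios scaling and with D3 to D6 only, and 8 with the block. For LPS at 2 h in MPH the count of 3 became 5 with the block and 1 to 3 without single cultures (1 without M3). The cause was not tested.

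The numbers shared by D3 and M3 and by D4 and M4 did not pair these cultures (r of deviations -0.668 to -0.332), and blocking on them left 0 members called at each time. Instead D3 deviated with M2, D4 with M3 and D5 with M4 (r 0.790 to 0.932), a hint from the data and not from the labels. A term for these pairs, added after seeing the data, gave 2 members at 0 h (Ptgs2 higher, Pla2g4a lower), 0 at 1 h and 2 at 2 h (Alox5ap higher, Tbxas1 lower). Of all 10239 genes it called 331 higher and 429 lower at 0 h, 0 at 1 h, and 527 and 706 at 2 h. The main fit called 69 and 20 at 0 h, 0 at 1 h, and 49 and 40 at 2 h. Without the 1 h library labelled M4 the term gave 2, 1 and 3 members, which added Ptgs2 at 1 and 2 h. Of 10231 genes it then called 412 and 635 at 0 h, 418 and 444 at 1 h, and 659 and 931 at 2 h. The block changed no other call of a member. At 0 h Ptgs2 rests on about 11.0 to 62.9 reads per DMSO library, and 3 of the 1 h libraries hold under 10 M reads.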
